A study of Mus musculus with 12 samples.

Results

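RNA of protein and lipid kinase genes was described in sorted thymocytes of mice on the B10 background, hybridized to Affymetrix MOE430B arrays. Members were matched by gene symbol, as genes of the MAP kinase cascade, the calmodulin-dependent kinases, protein kinases A, C and D, the AMP-activated kinase, phosphoinositide and diacylglycerol kinases, Akt, S6 kinases of the Rps6k type, and the Stk, Dyrk, casein and Nek families. This symbol rule was chosen with earlier results of these data known. The rule found 155 probe sets of 92 genes, among 9611 genes that had a single symbol in the platform annotation, and each gene was represented by its probe set with the highest mean over the 12 arrays. Symbols with these stems also belong to regulatory subunits, adaptors, inhibitors and opposite-strand transcripts. These stayed in the set and in its counts, and not all of them are named below.

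Per the labels, the mice carried a transgenic T cell receptor alone (TCR) or together with HEL, named in the titles as TCR:HEL, and they were 6 to 8 weeks old and untreated. CD4 single-positive cells of TCR mice are described as undergoing positive selection and those of TCR:HEL mice as undergoing negative selection, and double-positive cells of either mouse as cells before selection. Each of the 4 groups had 3 biological replicates with 1 array each, and all groups carried the receptor transgene. The promoter that drives HEL, the number of animals behind a replicate and the sort gates are not given in the sources used here.

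Kinases pass on the signal of the T cell receptor by adding phosphate to proteins or lipids. Receptor engagement yields diacylglycerol, which recruits protein kinase C and feeds the MAP kinase cascade, and calcium, which acts through calmodulin and its kinases, while phosphoinositide 3-kinases make the membrane lipid that recruits Akt. In thymocytes these routes are used both for positive selection, in which cells with useful receptors survive, and for negative selection, in which cells with self-reactive receptors are removed, and Nek kinases belong instead to the machinery of cell division.

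Arrays of 1 group correlated at Pearson r = 0.816 to 0.892 over all probe sets kept. The Gapdh 5' to 3' signal ratio, which falls with RNA degradation, was 0.0379 on TCR single-positive, 0.0856 on TCR:HEL single-positive and 0.107 on TCR double-positive replicate 1, against 0.195 to 0.453 on the other arrays. Arrays fell into 3 hybridization periods that largely coincided with stage, so that differences between stages and between periods could be set apart only within period 2 for TCR and period 3 for TCR:HEL. Of the stage markers, Cd8a averaged 7311 (TCR) and 5612 (TCR:HEL) in double-positive cells and 651 and 1118 in single-positive cells, and the 156 and 292 of Arpp21 stood against 24.5 and 102. The Cd8a decline was called in both mice and that of Arpp21 in TCR mice. Summed B cell markers ranged from 402 to 414 in TCR and 709 to 968 in TCR:HEL double-positive cells, and from 298 to 481 and 378 to 630.5 in the single-positive cells. Summed epithelium and stroma markers, mostly Epcam, ranged from 588 to 2142 in TCR and 1249 to 3056 in TCR:HEL double-positive cells, and from 2108 to 3805 in TCR and 1149 to 1662 in TCR:HEL single-positive cells. The single-positive groups did not overlap in that sum, and the stroma gene Dcn rose between the stages in TCR mice (1.30, adjusted p = 0.0308). The part of these markers in the differences below was not tested. None of the 8 CD4 single-positive markers and none of the 6 T lineage markers looked for had a probe set with a single symbol, so those identities rest on the labels. Markers of other cells were measured in part, with 4 of 9 for B cells, 1 of 9 for dendritic cells and macrophages, 4 of 8 for epithelium and stroma and 0 of 9 for erythroid, NK and gamma-delta cells. In bulk RNA a fall in a gene's signal can come from fewer cells that express it or from less RNA per cell, and these cannot be told apart.

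Of the 92 genes, 70 passed the filter on low signal, which asked for a signal above the array's median on at least 3 arrays, and 22 did not. Among the 22 were Prkcz, Prkd1, Prkd3, Dgki, Mapk10, Map3k7, Map3k12, Pik3c2a, Prkag2 and 3 of the 4 Nek genes, among them Nek5, with a highest signal of 94.3, and the highest signal of any of them on any array was 103. They were not tested. For the 70 others, groups were compared by limma on log2(signal + 16), with p-values adjusted over all 13703 probe sets kept and calls at an adjusted p under 0.05. Fold changes are on that log2 scale, which understates changes at low signal. The median SD within groups was 0.41 for the 70 genes and 0.45 for all probe sets kept.

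Between the stages, 3 kinase-family genes fell in single-positive cells of both mice: the mitotic kinase gene Nek2, Prkar2b, which encodes a regulatory subunit of the cAMP-dependent protein kinase, and the diacylglycerol kinase gene Dgke. Another 2, the calmodulin kinase inhibitor gene Camk2n1 and the phosphoinositide 3-kinase regulatory subunit gene Pik3r3, rose in single-positive cells of TCR:HEL mice. In TCR mice 3 of 70 genes were called (4.29%), where 3.53% of all probe sets were, which is near the background, and all 3 were lower, where 2.42% of all probe sets were called lower. In TCR:HEL mice 5 of 70 were called (7.14%), against a background of 1.98%, with 2 higher (2.86%, against 0.876%) and 3 lower (4.29%, against 1.1%). The groups did not overlap in 17 genes in TCR mice (24.3%, against 17%), 11 of them higher (15.7%, against 8.2%) and 6 lower (8.57%, against 8.81%). In TCR:HEL mice 15 did not overlap (21.4%, against 18.6%), 6 higher (8.57%, against 9.77%) and 9 lower (12.9%, against 8.87%). Prkcb, Pik3cb and Map3k20, among these 9, would not have passed the filter on low signal without the double-positive arrays. Map3k20 is also among the 6 lower in TCR mice. Mapk12, among the 11 higher in TCR mice, would not have passed it without the single-positive arrays. Called lower in both mice were 3 of the 70 genes and 0.847% of all probe sets.

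Nek2, which encodes a kinase that separates the centrosomes on entry into mitosis, had the largest stage change of the 70 genes. Double-positive signals were 1769.9, 1670.3 and 2755 in TCR and 2036, 2247 and 2073 in TCR:HEL mice. Single-positive signals were 152, 175 and 103 in TCR and 319, 643 and 381 in TCR:HEL mice. All 6 double-positive arrays lay above all single-positive ones, and the TCR:HEL single-positive arrays lay between the double-positive and the TCR single-positive arrays without overlap. The log2 fold change from double- to single-positive cells was -3.70 ± 0.30 (SE) in TCR (adjusted p = 1.16e-05) and -2.26 ± 0.30 in TCR:HEL mice (adjusted p = 0.000928). Within hybridization period 2 the TCR change was -3.41 (1 against 3 arrays), and within period 3 the TCR:HEL change was -2.03 (2 arrays against 1). Of its other 2 probe sets, 1 was called in the same direction, with -2.14 and -1.98. That probe set had double-positive means of 135 and 136. Its single-positive means, 22.3 and 25.3, lay below the medians of the single-positive arrays, 64.5 to 81.3. It could pass the filter on low signal only with double-positive arrays. The other probe set, with mean signals between 122 and 161, had 0.38 and 0.10. With the mean of the 3 probe sets the Nek2 changes were -1.82 and -1.38, both called.

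The difference of Nek2 between the single-positive groups was 1.51 ± 0.30, higher in TCR:HEL, with an adjusted p of 0.0602, which misses the threshold. Single-positive arrays of the same replicate number deviated from their group means together, and with the replicate number as a block the adjusted p was 0.0496. It was 0.0434 after quantile normalization, and over the 22 alternatives the difference ranged from 0.51, with the mean of its probe sets, to 1.76, with adjusted p from 0.0434 to 0.728. The 2 arrays of period 1 differed by 0.996 and the arrays of period 3 by 2.10. The other 2 Nek2 probe sets had differences of 0.19 and -0.15, neither called. The 0.19 was at single-positive means of 22.3 and 25.3, near the pseudocount of 16. The -0.15 was from the probe set that also had no called change between the stages. Neither can decide on the difference, and both enter the mean of the probe sets. The interaction, that is, the TCR:HEL effect in single-positive minus that in double-positive cells, was 1.43 ± 0.43 for Nek2, with an adjusted p of 0.938.

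Between the stages and between the single-positive groups, summed proliferation markers differed in the direction of Nek2. The summed signal of the 11 markers on the array, mostly Cdca8 and Mcm5, ranged from 28109 to 34605 in TCR and from 25229 to 26860 in TCR:HEL double-positive cells. It ranged from 2457 to 6540.4 in TCR and from 7415 to 10971 in TCR:HEL single-positive cells. The double-positive groups did not overlap in the sum, while they did in Nek2. TCR double-positive replicate 3 had the highest Nek2 signal, 2755, and the lowest sum of its group, 28109. Of the 9 markers kept, 7 fell from the double- to the single-positive stage in TCR and 5 in TCR:HEL mice, and 1, Cenpe, was higher in TCR:HEL than in TCR single-positive cells. Between the single-positive groups 7 of the 9 had positive differences, while Mcm10 (-0.02) and Tyms (-0.53) had negative ones. Of 9 other cell cycle kinases kept, the checkpoint genes Bub1b (-4.65) and Chek1 (-1.59) fell in TCR and Bub1b (-2.15) in TCR:HEL mice. Not called were 7 of the 9 in TCR and 8 in TCR:HEL mice. Positive changes were had by 3 of the 9 in TCR (median -0.33) and 5 in TCR:HEL mice (median 0.20). The double-positive marker Cd8a also differed in the direction of Nek2 between the stages and between the single-positive groups. Cd8a signals were 731, 705 and 516 in TCR and 986, 1558 and 809.8 in TCR:HEL single-positive cells. Of 8 double-positive markers, 2 were measured, Cd8a and Arpp21, and their sum, mostly Cd8a, was 566 to 734 and 924 to 1632. Neither Cd8a nor this sum, largely the same gene, overlapped between the single-positive groups. Among the single-positive arrays TCR:HEL replicate 2 was highest for Cd8a and for Nek2. The part of these markers in the differences of Nek2 between stages and between the single-positive groups was not tested.

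**Figure D1:**
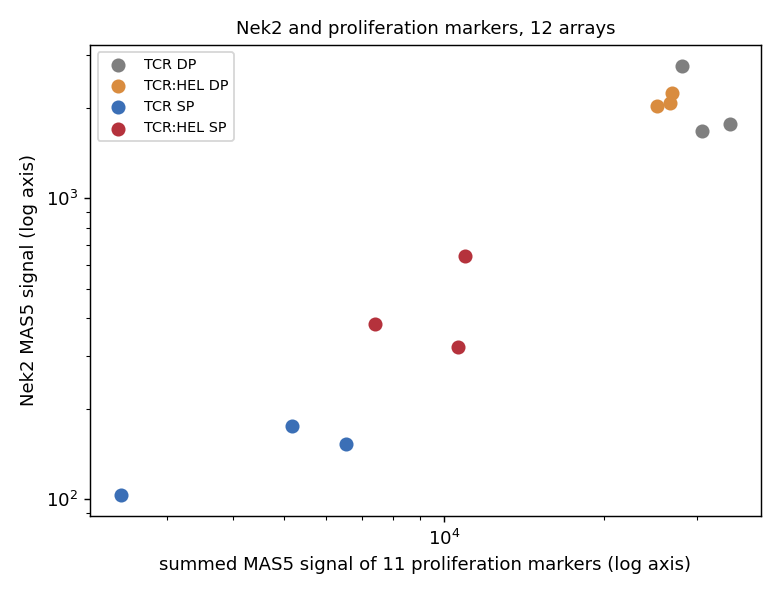
Nek2 signal (vertical, log axis) against the summed signal of 11 proliferation markers (horizontal, log axis), with 1 point per array. TCR single-positive arrays lie at 103 to 175 for Nek2, TCR:HEL single-positive arrays at 319 to 643 and the 6 double-positive arrays at 1670.3 or more.

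Prkar2b encodes a subunit that holds the catalytic subunit of the cAMP-dependent protein kinase inactive until cAMP binds. Its signals were 377, 221 and 285 in TCR and 335, 347 and 310.3 in TCR:HEL double-positive cells, and 119.8, 87.4 and 71.9 in TCR and 155, 136 and 139 in TCR:HEL single-positive cells. The stages did not overlap in either mouse, and the single-positive groups did not overlap each other. The change was -1.50 ± 0.27 in TCR mice (adjusted p = 0.00365), called under all 22 alternatives, and -1.12 ± 0.27 in TCR:HEL mice (adjusted p = 0.0414). The TCR:HEL call was lost under 13 of the 22 alternatives, among them without any of the 6 TCR:HEL arrays, without TCR single-positive replicate 2 and without TCR double-positive replicate 3, with values between -1.20 and -0.93 and adjusted p of up to 0.174 over all. The other 2 probe sets of Prkar2b had -1.15 and -1.36 in TCR and -0.65 and -1.46 in TCR:HEL mice, of which the first in TCR was called.

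Dgke encodes a kinase that removes diacylglycerol by turning it into phosphatidic acid. Its signals were 302, 379 and 392 in TCR and 269, 535 and 245 in TCR:HEL double-positive cells, and 50.5, 154 and 80.1 in TCR and 104.7, 102.7 and 59.0 in TCR:HEL single-positive cells. Every double-positive array lay above every single-positive array, and the mice overlapped within each stage. The change was -1.85 ± 0.37 in TCR (adjusted p = 0.00965) and -1.75 ± 0.37 in TCR:HEL mice (adjusted p = 0.0227). With the hybridization period as a block the changes were -1.27 and -1.17 and not called (adjusted p = 0.151 and 0.192). The TCR call was also lost without the arrays of period 1 (-1.54, adjusted p = 0.0516), and the TCR:HEL call without TCR:HEL single-positive replicate 3 (-1.52, adjusted p = 0.123) or double-positive replicate 2 (-1.41, adjusted p = 0.146).

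Camk2n1 encodes a small protein that binds and inhibits calmodulin-dependent kinase II and is no kinase. Signals of Camk2n1 were 126, 153 and 132 in TCR and 99.8, 126 and 107 in TCR:HEL double-positive cells, and 265, 196 and 237 in TCR and 246, 408 and 608 in TCR:HEL single-positive cells. Single-positive arrays lay above double-positive arrays in both mice. The change was 1.70 ± 0.30 in TCR:HEL mice (adjusted p = 0.00669), called under all 22 alternatives, and 0.69 ± 0.30 in TCR mice (adjusted p = 0.308). A second probe set of Camk2n1 had 1.67 ± 0.43 in TCR mice, which was called (adjusted p = 0.0455), and 0.98 ± 0.43 in TCR:HEL mice, which was not, so the 2 probe sets disagree on where the larger change lay. The interaction was 1.01 ± 0.43 on the brightest probe set and -0.69 ± 0.61 on the other, with adjusted p of 0.998 for both.

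Pik3r3 encodes a regulatory subunit that binds the catalytic subunits of class I phosphoinositide 3-kinases. Its signals were 269.9, 216 and 218 in TCR and 179, 203 and 151 in TCR:HEL double-positive cells, and 431, 369 and 448 in TCR and 523, 446 and 364 in TCR:HEL single-positive cells. The stages did not overlap, while the single-positive groups did. The change was 1.24 ± 0.25 in TCR:HEL mice (adjusted p = 0.0138) and 0.79 ± 0.25 in TCR mice (adjusted p = 0.111), and their difference, the interaction, was 0.46 ± 0.35 (adjusted p = 0.998). A period block ended the TCR:HEL call (adjusted p = 0.0681), as did fits without the arrays of period 1 (adjusted p = 0.0661) and without TCR:HEL single-positive replicate 1 (adjusted p = 0.0689) or double-positive replicate 3 (adjusted p = 0.0661), with values of 1.12 to 1.23.

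**Figure D2:**
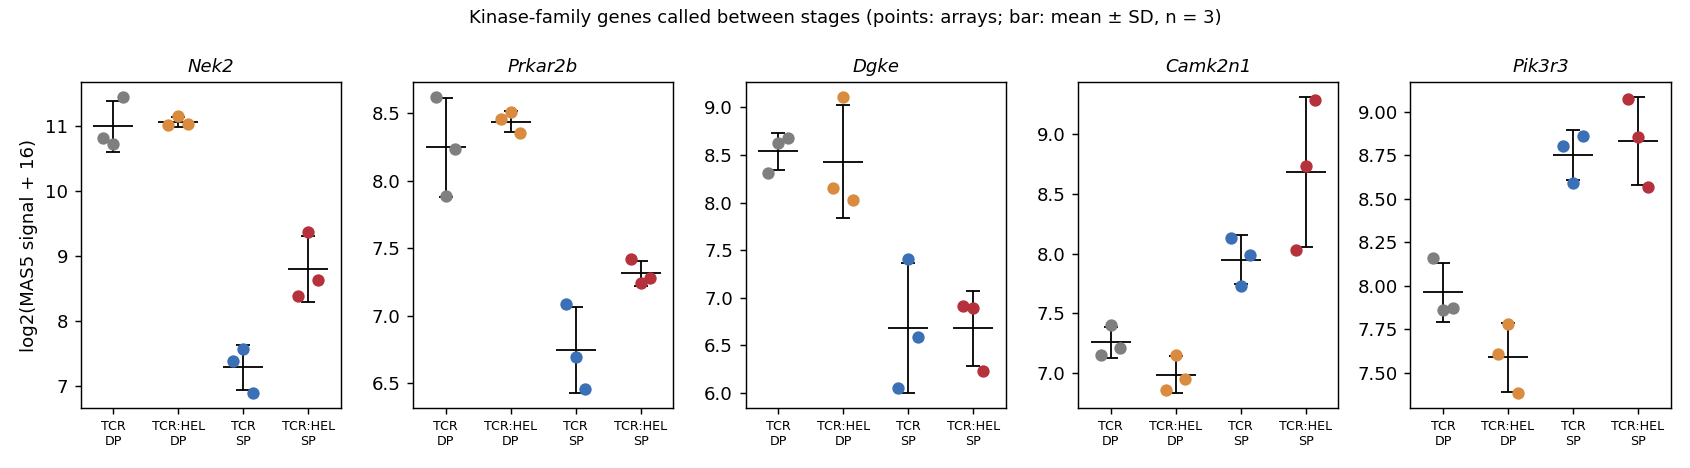
log2(MAS5 signal + 16) on the vertical axis for the 5 kinase-family genes called between the stages, by group (DP double-positive, SP single-positive), with 1 point per array and the mean ± SD (n = 3). Nek2, Prkar2b and Dgke are lower and Camk2n1 and Pik3r3 higher on all single-positive than on all double-positive arrays of the same mouse.

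Because these genes changed together with stage, the 250 bases before their start sites are shown, from RefSeq on GRCm38.p6, 5′ to 3′ on the gene's strand. Entries existed for 75 of the 92 genes. Where RefSeq gives several starts for a gene, the entry listed at the top is used, and Camk2n1 is named only. Capitals mark matches, on either strand, to 4 motifs that do not overlap in these windows: CCAAT, bound by NF-Y, the cell cycle element TTTGAA, the AP-1 site TGANTCA and the NFAT core TGGAAA.
Nek2 (chr1:191821223-191821472, plus strand): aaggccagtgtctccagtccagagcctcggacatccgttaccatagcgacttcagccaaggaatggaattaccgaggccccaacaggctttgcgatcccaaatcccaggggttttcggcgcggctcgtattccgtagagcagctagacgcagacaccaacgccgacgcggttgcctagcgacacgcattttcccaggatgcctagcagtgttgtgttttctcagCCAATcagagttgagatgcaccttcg
Prkar2b (chr12:32061278-32061527, minus strand): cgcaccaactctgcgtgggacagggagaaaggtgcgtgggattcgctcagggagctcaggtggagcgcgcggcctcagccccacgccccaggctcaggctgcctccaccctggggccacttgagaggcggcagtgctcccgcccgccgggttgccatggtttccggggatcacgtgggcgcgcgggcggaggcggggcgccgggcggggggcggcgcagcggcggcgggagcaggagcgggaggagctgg
Dgke (chr11:89060749-89060998, minus strand): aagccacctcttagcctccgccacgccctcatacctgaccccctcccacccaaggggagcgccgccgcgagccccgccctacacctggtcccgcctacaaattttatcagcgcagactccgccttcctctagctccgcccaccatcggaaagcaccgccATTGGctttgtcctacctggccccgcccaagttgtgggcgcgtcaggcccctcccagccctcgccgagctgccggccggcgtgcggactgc
Pik3r3 (chr4:116221166-116221415, plus strand): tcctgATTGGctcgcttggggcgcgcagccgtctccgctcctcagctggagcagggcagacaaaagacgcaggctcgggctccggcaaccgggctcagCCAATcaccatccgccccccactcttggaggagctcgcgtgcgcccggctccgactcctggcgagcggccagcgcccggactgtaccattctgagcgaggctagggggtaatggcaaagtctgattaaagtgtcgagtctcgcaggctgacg
Nek2 had 1 CCAAT match, 26 bases before the start site, Dgke had 1 on the opposite strand at 91 bases, Pik3r3 had 2 at 152 and 245 bases, and Prkar2b had none. Of all 32851 windows of this length, 33.8% held CCAAT, 15.99% TTTGAA, 6.75% TGANTCA and 18.6% TGGAAA. None of the 4 windows shown held the last 3 motifs, which says only that these letters are not there, and the window of another Pik3r3 start held 1 TGGAAA match, at 106 bases.

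Among the other members of the calcium group, Camk2a, a subunit gene of calmodulin-dependent kinase II known mainly from neurons, had 319 ± 92.1 in TCR and 483 ± 173 in TCR:HEL double-positive cells and 146 ± 78.7 and 180.1 ± 117 in the single-positive cells (SD, n = 3). Its changes were -1.12 ± 0.43 and -1.46 ± 0.43 and were not called (adjusted p = 0.216 and 0.109). They were called without the arrays of period 1, at -1.49 in TCR (adjusted p = 0.0374) and -1.91 in TCR:HEL mice (adjusted p = 0.0148). The highest TCR and TCR:HEL single-positive signals of Camk2a, 236 and 312, were both on those arrays. Another Camk2a probe set was called in TCR mice (-1.38 ± 0.36, adjusted p = 0.0489), and a further one had a positive change there, 1.34 ± 0.40 (adjusted p = 0.0926), so the 5 probe sets of Camk2a do not agree, and their mean gave -0.43 and -0.66 in the 2 mice. Camk4, the calmodulin kinase that acts on CREB in the nucleus, stood at 2710.0 and 2798 on TCR single-positive replicates 2 and 3 and at 707 on replicate 1, against 1420 to 3476 on the 6 double-positive arrays.

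For protein kinase C, Prkca, of the classical class that needs calcium, gave 703, 707 and 842 (TCR) and 726, 879.6 and 889 (TCR:HEL) before selection, in double-positive cells. It had 1111, 1152 and 1494 in TCR and 986, 1217 and 1028 in TCR:HEL single-positive cells. The stages did not overlap, with changes of 0.72 ± 0.23 and 0.37 ± 0.23 that were not called (adjusted p = 0.125 and 0.586). Not overlapping and higher in both mice were 3 of the 70 genes, namely Prkca, Pik3r3 and Camk2n1, or 4.29%, where 2.43% of all probe sets were. Lower in both were 4, Nek2, Prkar2b, Dgke and the stress-activated kinase gene Map3k20, or 5.71%, where 3.69% of all probe sets were. Of these, Map3k20 would not have passed the filter on low signal without the double-positive arrays. Map3k20 had changes of -0.91 ± 0.46 and -1.31 ± 0.46, the latter -0.77 without TCR:HEL single-positive replicate 1, and Prkch, a protein kinase C gene of T cells, 0.60 ± 0.27 and 0.25 ± 0.27.

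In the MAP kinase cascade 24 genes were members and 18 were tested, and none was called between any groups. Their changes from double- to single-positive cells ran from -0.94 to 1.01 in TCR and from -1.31 to 0.76 in TCR:HEL mice, with medians of 0.14 and -0.07, against 0.05 and 0.03 for all probe sets. The highest in TCR mice was Map4k4, which encodes an upstream activator of the JNK route, at 1.01 ± 0.35 (adjusted p = 0.164). Its change under the period block was 0.44. The lowest there was Mapk1ip1l, which is no kinase, at -0.94 ± 0.38, but its other probe set had 0.79 in the same contrast, so that the mean of both was -0.075. Map3k21, a low-signal member at 23.5 to 78.7, had an interaction of -1.07 ± 0.63 and a difference of 0.57 ± 0.45 between the double-positive groups. The p38 gene Mapk14 ranged from 437 to 806 and the JNK gene Mapk8 from 94.0 to 269 over the 12 arrays, and the groups of each of the 4 contrasts between pairs of groups overlapped for both. Of the death-linked kinase gene Map3k5, mean signals were 867 and 842 in the double-positive and 1002 and 783 in the single-positive cells.

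Of the 14 phosphoinositide 3-kinase, Akt and Rps6k genes 12 were tested. Apart from Pik3r3 none was called. The catalytic subunit gene Pik3cd, the main form of leukocytes, had 1797 and 1707 in the double-positive and 2243 and 1790 in the single-positive groups, and the regulatory subunit gene Pik3r1 1887 and 1731, and 1695 and 1370. Pik3r5, which encodes the regulatory subunit of the form driven by G protein-coupled receptors, changed by -1.06 ± 0.30 between the stages in TCR:HEL mice without passing (adjusted p = 0.0946) and had -0.23 ± 0.30 in TCR mice. Akt1 had changes of 0.04 ± 0.33 and -0.32 ± 0.33, and Pip4k2a, a kinase gene for phosphatidylinositol phosphates, 0.47 ± 0.53 and 0.79 ± 0.53, none called. Stk4, the Hippo pathway kinase Mst1 that T cells need for adhesion and emigration, ranged from 6245 to 13030 over the 12 arrays. Stk17b, the kinase Drak2 known to set the threshold of receptor signalling in thymocytes, had 205, 984 and 1981 in TCR single-positive cells against 160 to 546 in TCR double-positive cells. Its changes of 1.28 ± 0.64 and 1.24 ± 0.64 were not called, and it was called in TCR mice without TCR single-positive replicate 1, the lowest of these values, or without all arrays of period 1.

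Stk35 had -0.80 ± 0.55 and -1.43 ± 0.55 between the stages, with signals of 121, 12.8 and 38.7 in TCR:HEL single-positive cells that overlapped the 90.4 to 291 of the double-positive cells, and the TCR:HEL value was -0.90 without single-positive replicate 2. The brighter members of the remaining families showed no called change either. The casein kinase gene Csnk1g3 had 0.03 ± 0.31 and 0.30 ± 0.31, and the diacylglycerol kinase gene Dgkd -0.21 ± 0.42 and -0.35 ± 0.42. Prkab2, which encodes a subunit of the AMP-activated kinase, had 0.11 ± 0.28 and 0.32 ± 0.28. Other Dgkd probe sets tested had -0.62 ± 0.59 and -0.34 ± 0.28 in TCR mice. In TCR:HEL mice the same probe sets disagreed, with -1.85 ± 0.59 and 0.22 ± 0.28, none called.

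**Figure D3:**
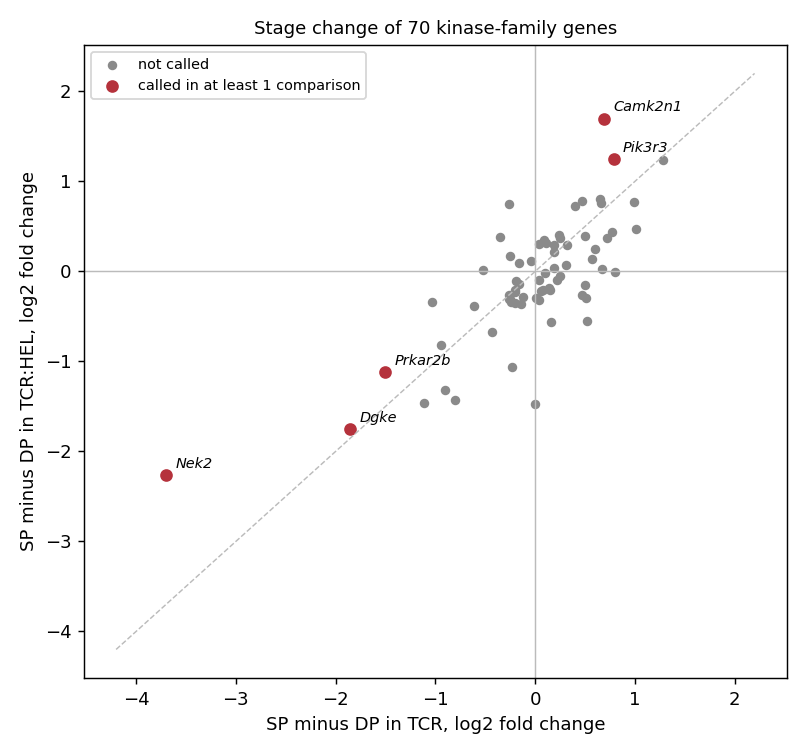
Change from double- to single-positive cells in TCR (horizontal) and in TCR:HEL mice (vertical), both as log2 fold changes, for the 70 genes tested. The dashed line marks equal change, Nek2 lies farthest from 0 at -3.70 and -2.26, and Camk2n1 and Pik3r3 lie above the line at 0.69 and 1.70, and 0.79 and 1.24.

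Single-positive cells of the 2 mice were compared to find kinase genes that differ between cells labelled as under negative and under positive selection. None of the 70 was called by the main limma fit, which took no pairs, where 0.219% of all probe sets were. Of the 70, 9 had an unadjusted p under 0.05 (12.9%, against 7.19% of all probe sets). With the replicate number as a block 1 was called, Nek2. The fold changes of the 70 ran from -0.99 for Prkcb to 1.51 for Nek2, and 29 of 70 were positive (41.4%, against 51.5%). Prkcb passed the low-signal filter only through double-positive arrays. Its single-positive signals were 62.1, 51.1 and 32.8 in TCR and 10.5, 18.5 and 20.1 in TCR:HEL mice. All lay below the medians of their arrays, which were 64.5 to 81.3. The groups did not overlap in 9 genes that were lower in TCR:HEL (12.9%, against 4.89% of all probe sets) and in 3 that were higher, namely Nek2, Prkar2b and Mapk15 (4.29%, against 5.74%), 12 in all (17.1%, against 10.6%). The 9 lower genes were Dyrk2, Pik3r5, Pik3cd, Prkce, Prkcb, Camkk2, Stk4, Map3k10 and Csnk1g1.

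Dyrk2, a kinase gene linked to p53 and to protein degradation, had the smallest p among the lower genes on the probe sets chosen. Its signals were 3566, 3507 and 4023 in TCR single-positive cells and 2137, 1918 and 2008 in those of TCR:HEL mice. The double-positive signals were 1907, 1551 and 3160.3 in TCR and 2236, 2028 and 1823 in TCR:HEL mice. The 3 TCR single-positive arrays were above all others. The difference between the single-positive groups was -0.87 ± 0.26 (adjusted p = 0.351), -0.73 within period 1 and -1.03 within period 3. The change between the stages, which shares the TCR single-positive arrays with it, was 0.80 ± 0.26 in TCR mice, and it was called without TCR double-positive replicate 3 (1.09, adjusted p = 0.03003). Pik3r5 had 1064, 848 and 855 in TCR and 718, 388 and 524 in TCR:HEL single-positive cells, a difference of -0.78 ± 0.30 (adjusted p = 0.562). Pik3ip1, of the phosphoinositide 3-kinase group, had -0.58 ± 0.41 on its chosen probe set (adjusted p = 0.838), and the groups overlapped. Its other, less bright probe set had -1.23 ± 0.30, which was not called (adjusted p = 0.151). The unadjusted limma p of that probe set, 0.0009, was smaller than the 0.0049 of Dyrk2.

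All 5 tested protein kinase C genes had negative differences between the single-positive groups, from -0.99 to -0.06, and 0 were called. The -0.99 is that of Prkcb, with single-positive signals below the array medians. For Prkce the signals were 149, 128 and 111 in TCR and 68.8, 77.3 and 63.0 in TCR:HEL cells, with a difference of -0.76 ± 0.28 (adjusted p = 0.537). Of the 7 calcium group genes 5 were positive, with Camk2d, a subunit gene of calmodulin-dependent kinase II, at 1.31 ± 0.51 (adjusted p = 0.563) and Camk2n1 at 0.74 ± 0.30. The Camk2d difference was 0.66 without TCR single-positive replicate 1 and 0.49 without the arrays of period 1, while its other 4 probe sets had 0.92 to 1.90, none called. The other Camk2n1 probe set had -0.07, the mean of both gave 0.33, and the value was 0.43 without TCR:HEL single-positive replicate 3 and 1.15 without the arrays of period 1. Camk2d signals were 43.4, 225 and 205 in TCR and 442, 202 and 467 in TCR:HEL single-positive cells, and the groups overlapped. Camkk2, which activates calmodulin kinases and the AMP-activated kinase, had -0.52 ± 0.25, Stk4 -0.55 ± 0.25 and Pip4k2b -0.73 ± 0.33. Without TCR single-positive replicate 1, Stk4 had -0.33 and Pip4k2b -0.47. The medians by group were -0.10 for the MAP kinase cascade, -0.28 for protein kinase C, 0.22 for the calcium group, -0.07 for the phosphoinositide 3-kinase group and 0.01 for all probe sets.

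**Figure D4:**
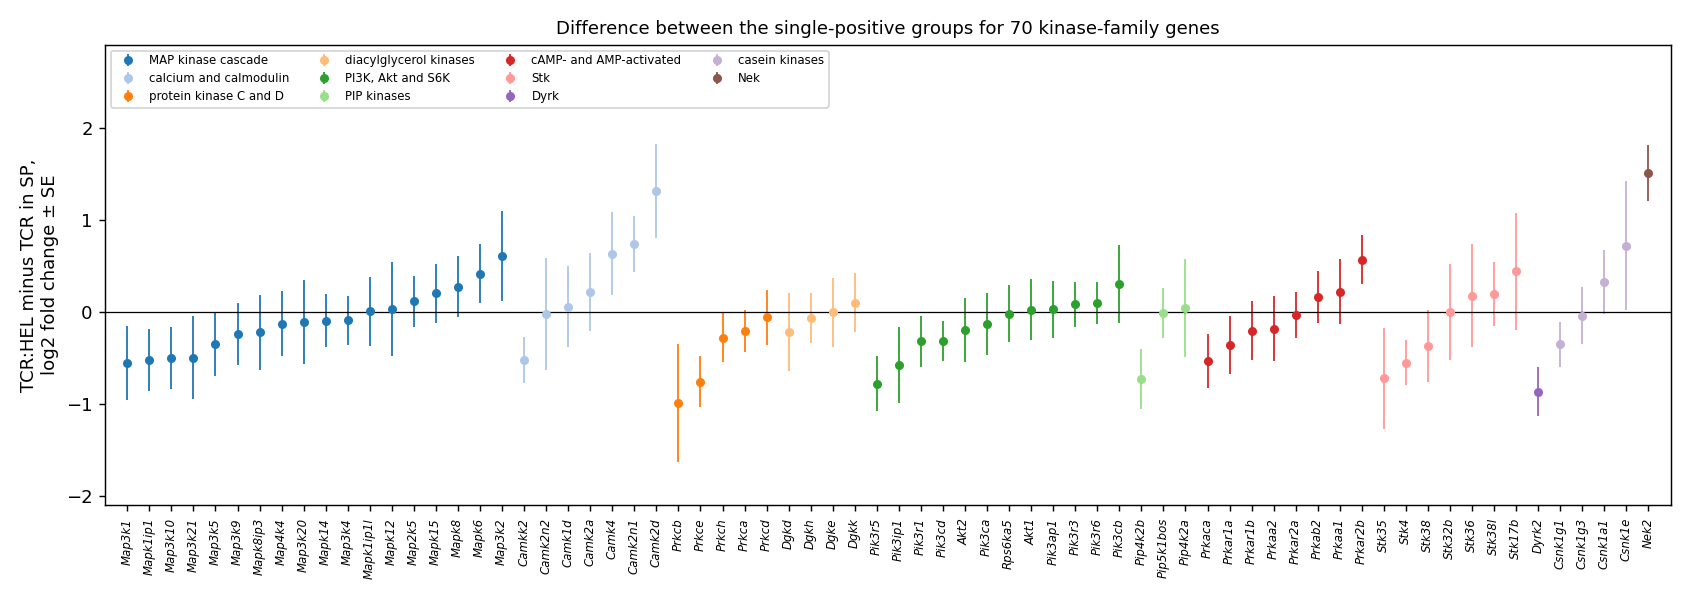
Difference between TCR:HEL and TCR single-positive cells (log2 fold change ± SE) for the 70 genes tested, grouped and coloured by family. Nek2 is the highest at 1.51 and Prkcb the lowest at -0.99, and none passed the threshold. Prkcb had single-positive signals below the array medians.

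In double-positive cells the comparison of TCR:HEL with TCR asked whether the difference was present before selection. None of the 70 genes was called by limma, where 0% of all probe sets were, and 0 had an unadjusted p under 0.05, against 2.47% of all probe sets. The smallest p was 0.124, for Dgkk, with 0.52 ± 0.32, and differences ran from -0.56 to 0.57. The groups did not overlap in 5 genes (7.14%, against 7.67%), of which Pik3cb, Csnk1g1 and Dgkk were higher (4.29%, against 3.75%) and Pik3r3 and Stk4 lower (2.86%, against 3.92%) in TCR:HEL. Pik3cb would not have passed the filter on low signal without the TCR:HEL double-positive arrays, where its signals were 70.9, 69.8 and 79.7. Pik3ca, a catalytic subunit gene of phosphoinositide 3-kinase, had -0.55 ± 0.34. That value was -0.24 without TCR double-positive replicate 1, and the other 3 probe sets of Pik3ca had 0.01, 0.10 and 0.22. Dgkk had 0.33 with a pseudocount of 64, and Prkaca, the catalytic subunit gene of the cAMP-dependent kinase, had -0.43 ± 0.29. The 5 genes called between the stages had 0.07 ± 0.30 for Nek2, 0.19 ± 0.27 for Prkar2b, -0.11 ± 0.37 for Dgke, -0.27 ± 0.30 for Camk2n1 and -0.37 ± 0.25 for Pik3r3. The interaction called 0 of the 70 genes and 0.0073% of all probe sets, and 3 of the 70 had an unadjusted p under 0.05 (4.29%, against 4.44%).

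Partners of these kinases were taken from lists of pathway genes, of which the arrays held a part. These lists were chosen with earlier results of these data known. Over all probe sets, 0.219% were called between the single-positive groups. Between the stages 3.53% were called in TCR and 1.98% in TCR:HEL mice. Of 25 tested MAP kinase partners, Dusp4, a phosphatase gene that removes phosphate from MAP kinases, was higher in TCR:HEL than in TCR single-positive cells (2.82 ± 0.29), and 24 were not called. Between the stages Mapkapk3, a kinase gene that p38 activates, rose by 2.21 ± 0.31 in TCR and 2.54 ± 0.31 in TCR:HEL mice, from mean signals of 549 to 2709.9 and 520.5 to 3181. Egr3 rose in both mice, Fosl2 and Dusp5 rose in TCR:HEL mice, and Dusp4 fell in TCR mice. Of 27 tested partners of calcium, diacylglycerol and cAMP signalling, the cAMP phosphodiesterase gene Pde4d rose between the stages in TCR mice (1.14 ± 0.27), and 26 were not called there and none in the other contrasts.

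Of 15 tested partners of phosphoinositide 3-kinase, Akt and mTOR, Prr5l, which encodes a partner of mTOR complex 2, was higher in TCR:HEL single-positive cells than in TCR (1.73 ± 0.29) and rose between the stages in TCR:HEL mice (1.53 ± 0.29). Sesn3, a sestrin gene of the mTOR pathway, rose between the stages in both mice (1.78 ± 0.38 and 1.69 ± 0.38). Of 15 tested kinases of receptor, cytokine and NF-kB signalling, Tnik rose between the stages in TCR mice (1.69 ± 0.32). Of these 15, 4 were positive between the single-positive groups, with a median of -0.32, and 12 were positive between the double-positive groups, with a median of 0.20, and none was called in either.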

How the data were processed

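RNA of 12 samples was measured on 1-colour Affymetrix MOE430B arrays, 1 per sample, from 100000 to 1000000 cells per the labels' protocols. The deposited table holds MAS5 signals, linear intensity values per probe set, and the submitters' processing notes name MAS5 without a version. Their 2% trimmed means were 150.0 on each of the arrays, and no further scaling was applied. Deposited array records, which hold no expression values, gave the hybridization days.

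After 64 control probe sets were removed, 13703 of 22575 were kept (above the array median on at least 3 arrays). Of these, 9319 had 1 symbol, 149 several and 4235 none. Platform symbols date from 2016, and RefSeq genes of GRCm38.p6 changed 0 member symbols. With limma 3.58.1 in R 4.3.3, 4 group means were fitted to all 12 arrays with a trended empirical Bayes step (8 residual and 7.01 prior degrees of freedom), and 5 contrasts were tested two-sided with Benjamini-Hochberg adjustment. The code was tested on simulated data.

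Members, lists and the 35-day gap between hybridization periods were chosen with earlier results of these data known. Genes were named if called in any contrast, if among the 10 smallest p of a contrast, or as the 2 brightest of a family. Partner lists gave called genes, at most 6 per contrast. Mapk14, Mapk8, Pik3ip1, the untested genes and genes listed for not overlapping were named outside this rule, with values known. Same-numbered single-positive arrays of the 2 mice correlated in their deviations from group means (r = 0.159 to 0.2035). The main fit took no pairs. The replicate block was an alternative, and it took the numbers as shared in all 4 groups, also where same numbers did not correlate best. The design text calls replicates biological without naming animals. The p-values therefore set group differences against the spread between these samples, whatever animals they hold, and the number of arrays limits the precision. Alternatives covered the pseudocount, filter, normalization, moderation, blocks, probe sets per gene and leaving out arrays.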

Additional observations from a re-analysis of the deposited data

Results flagged for a closer look

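Csnk1g1, a casein kinase gene, differed on its brighter probe set in opposite directions in the 2 stages, with no overlap between arrays. TCR:HEL was lower than TCR in single-positive cells, by -0.35 on the log2 scale, and higher in double-positive cells, by 0.29. Signals were 1646, 1548 and 1677 in TCR and 959, 1530.4 and 1383 in TCR:HEL single-positive cells, and 1083, 844 and 1137 in TCR and 1145, 1173 and 1429.6 in TCR:HEL double-positive cells. Neither difference was called, and the interaction was -0.64 ± 0.35 with an adjusted p of 0.998. The other probe set of Csnk1g1 had 0.24 in single-positive and 0.17 in double-positive cells, the same direction in both, with an interaction of 0.07. For the mean of both probe sets the interaction was -0.29.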

How the results depend on the processing

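For the named genes in their contrasts, 1267 values under the alternatives kept their direction and their side of the threshold, 22 lost and 8 gained a call, and 19 changed sign. Between the single-positive groups the number of kinase-family genes called went from 0 to 1 with quantile normalization and with the replicate block (Nek2 in both). Between the stages in TCR:HEL mice it went from 5 to 3 with the period block (2 of the 5, and Camk2a) and lay between 3 and 5 with 1 array left out; it was 3 without TCR:HEL single-positive replicate 3, double-positive replicate 2 or double-positive replicate 3. In TCR mice it was 3 to 4 with 1 array left out, and the counts of the other 3 contrasts stayed at 0 there. The replicate block moved the count between the stages in TCR:HEL mice from 5 to 6 and changed it in no other contrast but the single-positive one; same numbers correlated best for all 6 arrays there and between the single-positive groups, for 2 of 6 between the double-positive groups and 2 of 6 between the stages in TCR mice.

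Sign changes fell on differences that were called under no alternative. For Dgke between the single-positive groups the value became 0.0077 with a pseudocount of 1 and 0.27 with the period block, and with 1 array left out it lay between -0.32 and 0.36. Between the double-positive groups Dgke became 0.17 with the period block and lay between -0.45 and 0.093 with 1 array left out. The interaction of Dgke became -0.33 without the arrays of period 1 and lay between -0.21 and 0.47 with 1 array left out. Pik3r3 between the single-positive groups became -0.013 without the arrays of period 1 and lay between -0.040 and 0.21 with 1 array left out. Between the double-positive groups, leaving out 1 array gave -0.0028 to 0.65 for Akt1 and -0.061 to 0.30 for Nek2, and Camk2n1 became 0.18 with the mean of its probe sets. The cause of these changes was not tested, and low signal over background limits what the 22 untested genes can show.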
